A study of Homo sapiens with 4 samples.

Results

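KYSE-890 and KYSE-960 are established human cell lines from squamous cell carcinoma of the oesophagus. Their microRNA profiles were compared over the 111 array features, of 856 in all, that were above background in at least 1 of these lines. Each of the 4 lines of the study, which also holds KYSE-450 and KYSE-520, was measured on 1 one-colour microRNA array, and the labels name no treatment. Both lines compared were cultured the same way, in medium holding 5% serum under 5% CO2 (37 °C), and 500 ng of total RNA from each carried the dye Hy5. There is no second array of either line, so every difference below is between 2 arrays, has no replicate check and carries no p-value. A difference between the lines and a difference between the hybridizations cannot be told apart.

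MicroRNAs are short RNAs that guide Argonaute proteins to messenger RNAs, mostly by pairing through the seed near their 5′ end, and lower the output of those messages. MicroRNAs with the same seed form families that can act on overlapping targets, and tumour lines of the same tissue can differ in which families they hold at a high level. The table identifies its features by miRBase mature-sequence accessions alone. None of the reference tables used here pairs such an accession with a microRNA name or sequence (0 accessions found in them), so features are given by accession, without family, seed, sequence or gene position. The labelled squamous origin could not be checked against marker microRNAs for the same reason.

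A feature was called above background when its deposited intensity, a brightness in linear scanner units, exceeded the median of its array by more than 3 times the root mean square distance of the dimmer values from it, the SD of the dim side. The threshold of the KYSE-890 array was 128 and admitted 95 features, and that of the KYSE-960 array was 130 and admitted 94. Of the 111, 78 were common to both lines, 17 were admitted for KYSE-890 alone and 16 for KYSE-960 alone. The dimmest feature admitted measured 129.5 on the first array and 131 on the second, and the brightest left out measured 127 and 129. Folds below come from intensities after quantile normalization of the 2 arrays unless called deposited. Where a feature was above background on 1 array only, its fold, that line over the other, is a lower bound. For the feature at 129.5 in KYSE-890 the floor of the other array was slightly higher, so its bound points the other way.

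The 2 lines had most of their bright microRNA features in common. Of the 10 brightest features of each line 7 were shared, and of the 20 brightest 14 were shared. Over the 78 features above background in both lines, the deposited intensity had a median of 332 in KYSE-890, with quartiles at 232 and 642, and a median of 317.5 in KYSE-960, with quartiles at 214 and 486. Across these 78 features the log2 deposited intensities of the lines had a Pearson's r of 0.91 and a Spearman's rho of 0.78. These coefficients describe features of 2 arrays that share a probe set, and features are not replicates. KYSE-890 was the brighter array in this range, with a median log2 difference (KYSE-890 over KYSE-960) of 0.20 in deposited values and 0.06 after normalization.

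**Figure D1:**
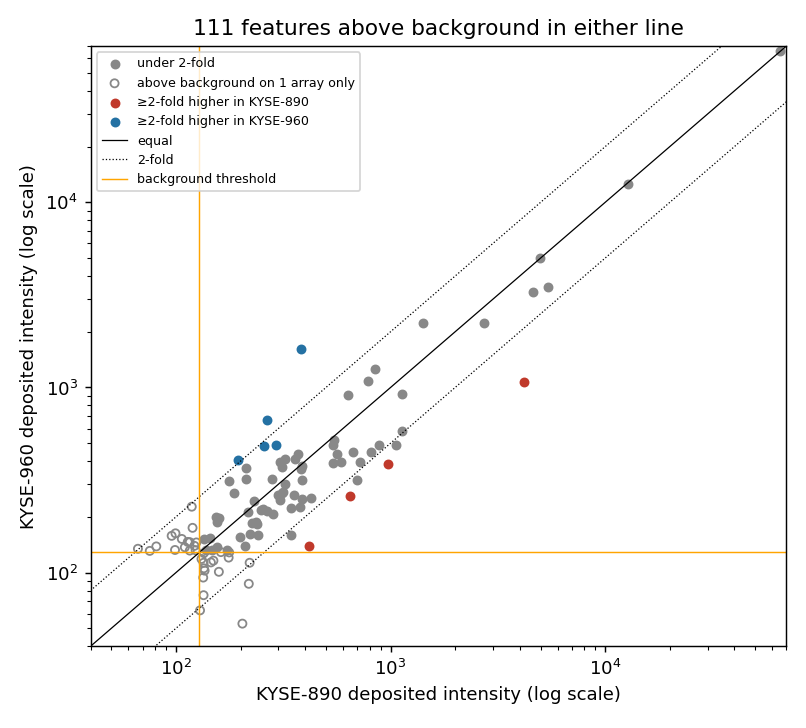
Deposited intensity in KYSE-890 (x) against KYSE-960 (y), both on log axes, for the 111 features above background in either line; filled points were above background on both arrays and open points on 1 array only. Colours mark the 4 features that favoured KYSE-890 by 2-fold or more after normalization and the 5 that favoured KYSE-960, dotted lines mark 2-fold in deposited values, and orange lines mark the thresholds of 128 and 130.

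Few features separated the lines by 2-fold or more. After normalization 4 of the 111 were higher in KYSE-890 by this margin, which is 0.467% of all 856 features, and 5 were higher in KYSE-960, which is 0.584%. These shares count the 745 features at background on both arrays as not called. At their own normalized values, 9 of those 745 (1.21%) were also apart by 2-fold or more. All 9 features called were above background in both lines. The floor held features above background on 1 array only under 2-fold, so this was largely set by the rule. The dimmest of the 9 in KYSE-960 measured 139.5, just over the threshold. Without scaling, 7 features passed 2-fold in favour of KYSE-890 (0.818% of all) and 3 in favour of KYSE-960 (0.35%). All 4 of the first direction and 3 of the 5 of the second passed 2-fold in both sets of values. Another 3 features favouring KYSE-890 passed it in the deposited values alone, and 2 favouring KYSE-960 passed it after normalization alone. Quantile normalization over all 4 arrays of the series gave 7 and 10, so the balance of directions depends on the scaling.

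Among features higher in KYSE-890, the largest difference in deposited values, and after normalization of the 2 arrays, was that of MIMAT0005898. The KYSE-890 array gave a deposited intensity of 4166, whereas KYSE-960 gave 1071, KYSE-450 gave 1189 and KYSE-520 gave 1369. KYSE-890 therefore stood above all 3 other lines, which lay close together. The normalized intensities of 3192 and 1063 differed 3.0-fold, against 3.89-fold in the deposited values. Quantile normalization over all 4 arrays brought this to 2.02-fold, below the next feature.

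The next was MIMAT0005880, a dimmer feature. It measured 419 in KYSE-890. KYSE-960, at 139.5, and KYSE-450, at 153, were just over their thresholds, and at 129.5 the KYSE-520 array was under its own. Of the 4 lines, KYSE-890 alone gave a signal well over its threshold. KYSE-890 exceeded KYSE-960 by 2.83-fold after normalization and 3.0-fold before, and by 4.52-fold when all 4 arrays were normalized together.

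In the other direction, MIMAT0000089 had the largest difference of all 111 features in deposited values and after normalization of the 2 arrays. It measured 1605 in KYSE-960 but 381 in KYSE-890, while the KYSE-450 array gave 7634 and the KYSE-520 array 1638. KYSE-890 was the lowest of the 4 lines, while KYSE-960 and KYSE-520 had nearly the same deposited intensity. KYSE-960 exceeded KYSE-890 by 3.96-fold after normalization and 4.21-fold before, and by 5.58-fold when all 4 arrays were normalized together.

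MIMAT0000081 followed, at 669.5 in KYSE-960 but 265.5 in KYSE-890, while the KYSE-450 array gave 760.5 and the KYSE-520 array 545.5. KYSE-890 was again the lowest line, and KYSE-960 lay between KYSE-450 and KYSE-520. The fold of KYSE-960 over KYSE-890 was 2.94 after normalization and 2.52 before, and 4.11 when all 4 arrays were normalized together.

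The position of KYSE-450 and KYSE-520 beside these 9 features is given as a description. In all 5 features at least 2-fold higher in KYSE-960, KYSE-890 had the lowest deposited intensity of the 4 lines, and in 4 of the 5 the KYSE-450 and KYSE-520 arrays were both brighter than KYSE-960. In the 4 features at least 2-fold higher in KYSE-890, KYSE-890 was the brightest of the 4 lines in 3. KYSE-450 and KYSE-520 were both brighter than KYSE-960 in 3 of these 4. In the first set KYSE-890 measured between 195.5 and 381, and KYSE-960 between 406.5 and 1605. In the second set KYSE-890 measured between 419 and 4166, and KYSE-960 between 139.5 and 1071. The features were chosen for the difference between KYSE-890 and KYSE-960, so the order of these 2 is fixed by the choice, and only the position of KYSE-450 and KYSE-520 is additional. For 61 of all 111 features, KYSE-450 and KYSE-520 were both brighter than both lines compared, and the part of array brightness in these positions was not tested.

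**Figure D2:**
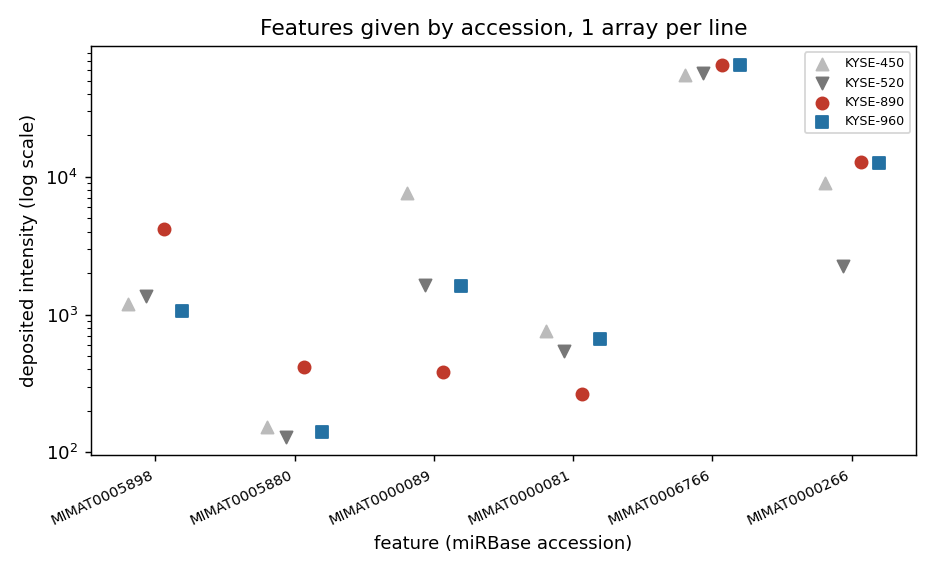
Deposited intensity (log axis) of the features given by accession in each of the 4 lines, 1 array per line and no error bars; the lines are offset sideways to keep points apart. The first 2 features are the most different with KYSE-890 higher, the next 2 with KYSE-960 higher, and the last 2 are the brightest features that differed by less than 0.32 log2, where the KYSE-890 and KYSE-960 points lie at nearly the same height.

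Differences under 2-fold but of at least 0.32 on the log2 scale were nearly evenly divided after normalization. There were 42 such features, 22 favouring KYSE-890 and 20 favouring KYSE-960. In the deposited values there were 44, 28 favouring KYSE-890 and 16 favouring KYSE-960. Of the 78 features above background in both lines, 4 were brighter in KYSE-890 before normalization and brighter in KYSE-960 after it, none by more than 1.33-fold after it. The direction of these 4 differences rests on the scaling.

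The remaining 60 features, 54.1% of the 111, differed by less than 0.32 log2 after normalization. Among all 856 features, each at its own value, this share was 58.1%. With their own values too, 46 of the 111 (41.4%) were this close. The count of 60 includes features held close by the floor, since those above background on 1 array only entered with the other array raised to its dimmest admitted feature. Counting only the 78 features above background in both lines, 36 (46.2%) were this close. These 36 ran from 135 to the top of the scale on the KYSE-890 array, with a median of 302, and from 132 upward on the other, with a median of 265.5. With no replicate array, a difference this small does not show equal levels.

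The 2 features at the top of the brightness range held the same rank in both lines. Quantile normalization gives features of equal rank equal values, so only their deposited intensities can be compared. MIMAT0006766 was the brightest on both arrays, where KYSE-890 gave 65348 and KYSE-960 gave 65472, while KYSE-450 gave 55201 and KYSE-520 gave 57264. The first 2 values lie just under 65535, the highest number a 16-bit scanner can record, so any difference beyond that number would not show. MIMAT0000266 was the second brightest in both lines and lay far below that ceiling, with 12821 for KYSE-890 and 12518 for KYSE-960, a 1.02-fold deposited difference. KYSE-450, at 9019, and KYSE-520, at 2253, were both lower for it.

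The size of the differences was not ordered by brightness. Of the 9 features above background in both lines whose geometric mean normalized intensity was at least 1000, 1 passed 2-fold in favour of KYSE-890 and 0 in favour of KYSE-960, and the median difference in either direction was 1.24-fold. Of the 34 features between 300 and 1000, 2 favoured KYSE-890 by 2-fold or more and 4 KYSE-960, with a median difference of 1.44-fold. Of the 35 features under 300, 1 was called in each direction, with a median difference of 1.20-fold. No background was subtracted here, and the sources do not state whether the deposited values were corrected for it. If background is left in, differences between dim features may be understated. The order by brightness without background was not tested.

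**Figure D3:**
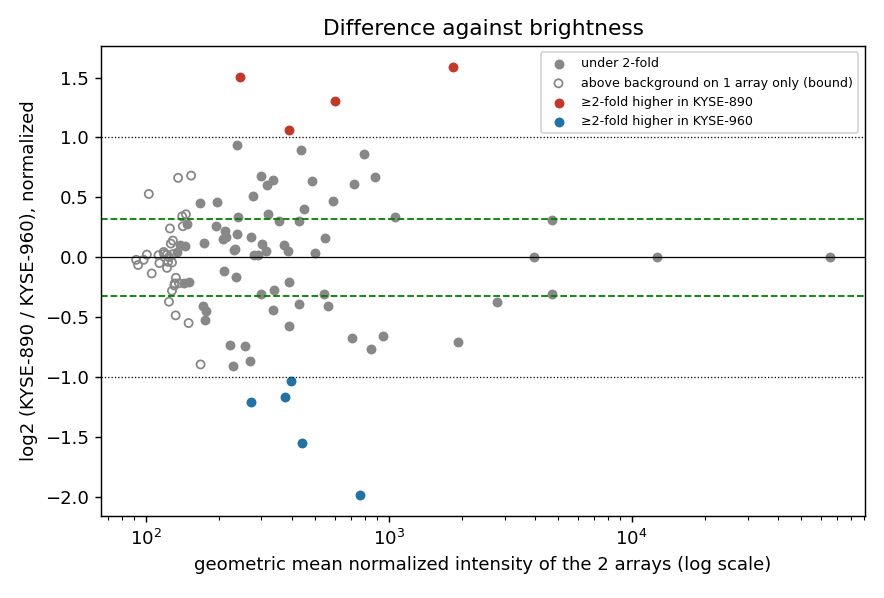
Log2 difference (KYSE-890 over KYSE-960, normalized) against the geometric mean normalized intensity of the 2 arrays on a log axis, for the 111 features above background in either line; open points are lower bounds. Dotted lines mark 2-fold and green dashed lines 0.32 log2, and the 9 features beyond 2-fold are spread over brightness, with 6 of them between 300 and 1000.

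Features above background in 1 of the 2 lines were almost all dim. The 17 seen in KYSE-890 alone measured between 129.5 and 220.5 there, with a median of 145.5, and 11 of them lay within 0.32 log2 of the threshold. The 16 seen in KYSE-960 alone measured between 131 and 227 there, with a median of 142.5, and 13 of them lay within 0.32 log2 of the threshold. The largest lower bound on a fold was 1.60 among the former and 1.86 among the latter, so no bound reached 2-fold. At their own normalized values, under the threshold in the dimmer line, 4 of the 33 were apart by 2-fold or more, which would make the counts 6 for KYSE-890 and 7 for KYSE-960. Of the 17, 10 were also above background in KYSE-450 or KYSE-520, as were 11 of the 16, which left 7 and 5 seen on no other array. None of these 33 features gave a strong signal in one line against background in the other.

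Accession numbers were read only for features that follow each other without a gap. Accessions are given out in order of registration, which says nothing certain about sequence. Among the 111 features there were 4 runs of at least 3 consecutive numbers, with 18 features in all, and they were looked at after the values had been seen. In 1 run every feature pointed the same way. This was the run of 6 from MIMAT0000062 to MIMAT0000067, all above background in both lines and all higher in KYSE-890, in deposited and in normalized values. Without sequences it could not be checked whether these 6 features measure separate signals, so they cannot be taken as 6 separate observations. Their normalized log2 differences lay between 0.17 and 1.31, with a median of 0.77. The median was 0.06 over the 78 features above background in both lines and 0.02 over all 111. Of those 78, 45 were higher in KYSE-890 after normalization and 51 in deposited values. After normalization 1 of the 6 passed 2-fold, beside 4 of all 856 features (0.467%) in this direction. In deposited values 3 of the 6 passed it, beside 7 of all 856 (0.818%). Their deposited intensities ran from 236 to 1135 for KYSE-890 and from 187.5 to 585.5 for KYSE-960. The other lines were brighter for all 6, from 643.5 to 4587 on the KYSE-450 array and from 923.5 to 5822 on the KYSE-520 array. The other 3 runs held features of both directions.

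For many features KYSE-890 and KYSE-960 lay on the same side of the other lines. In the deposited values they were both dimmer than KYSE-450 and KYSE-520 for 61 of the 111 features, as given above, and both brighter for 11, and the lines were interleaved for 39. For 36 features both lines lay at least 2-fold below both others, and for 0 at least 2-fold above. These counts cover the 111 features only and were not made over all 856, so they do not set these features apart from the rest. The thresholds of the KYSE-450 and KYSE-520 arrays were also higher, at 135 and 146, and admitted 118 and 150 features. The brightest feature was dimmer on them, at 55201 and 57264. The part of array brightness in these counts was not tested.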

How the data were processed

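The authors deposited 1 table of intensities, positive multiples of 0.5 on a linear scale, with 1 column per array. Per the labels' protocols, total RNA (500 ng) was labelled with Hy5 and kept for 16 h at 32 °C on a human microRNA oligonucleotide chip and scanned on a ProScanArray. The sources used here do not state background correction, spot averaging or scaling. The columns of KYSE-890 and KYSE-960 were quantile-normalized together with limma 3.58.1 in R 4.3.3. A feature under the threshold was raised to the level of the dimmest admitted feature of its array where it lay below it. The normexp alternative used an offset of 50 before normalization. No test was run, since each line had 1 array. The counting was also run on simulated arrays, with a scatter set by choice and changes placed in bright features only. It therefore checks the code and gives no error rate for these arrays.

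Up to 2 features per direction with the largest fold, and the 2 brightest within 0.32 log2, are given by accession. The features, lists and thresholds were chosen with earlier results of these data known. The 29 lists of microRNA names and the list of marker microRNAs could not be matched and gave no result. The number of arrays limits the precision.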

Additional observations from a re-analysis of the deposited data

How the results depend on the processing

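The counts of features at least 2-fold higher were 4 in KYSE-890 and 5 in KYSE-960. They were 7 and 3 with the deposited intensities, 7 and 3 with the medians of features above background on both arrays set equal, and 7 and 10 with quantile normalization over all 4 arrays. At 1.5-fold they were 15 and 14, and at 4-fold 0 and 0, as counts move with the threshold. Both counts of 0 rest on the scaling too. The largest fold in favour of KYSE-960 was 3.96 after normalization of the 2 arrays and 4.21 in deposited values. With all 4 arrays normalized together, the same feature reached 5.58-fold. In that setting the second feature given for KYSE-890 reached 4.52-fold in favour of KYSE-890. The 60 features within 0.32 log2 became 103 of 159 with the background threshold at 2 SDs, and 36 of 78 when signal on both arrays was required, since these settings admit more and fewer features. The other 20 recomputed counts and medians stayed within 1.5 times, or 0.1 log2, of the reported value. Of 48 recomputed differences of the features given by accession, 27 equalled the reported value. The other 21 differed in size and stayed on the same side of 2-fold. No paired analysis was possible because there is 1 array a line. The planned list medians could not be run without microRNA names. Depth of signal limits what can be seen: 745 of 856 features were not above background in either line.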

Other observations

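The 745 features at background on both arrays give the scatter between these 2 arrays at background level. Their log2 difference had an SD of 0.39 after normalization, 9 (1.21%) were apart by 2-fold or more, and 451 (60.5%) were within 0.32 log2. This scatter is that of the dimmest features and does not give the error of bright ones.

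Of the same 745 features, the KYSE-450 array had 27 above background and the KYSE-520 array 54, and 24 were common to both. The brightest of these measured 3350, in KYSE-520, and the median of the brighter of the 2 lines was 231 over the 57 features seen in either.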
